A study of Mus musculus with 6 samples.

Results

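Granins are acidic proteins that are packed with peptide hormones into the dense-core granules of neurons and endocrine cells, and prohormone convertases and carboxypeptidase E cut and trim the cargo of those granules into active peptides. Chromogranins and secretogranins help to build the granule, and the products are released on stimulation rather than continuously. In the inner ear such granules are chiefly known from neurons and from the nerve endings that reach the sensory epithelium.

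The 9 genes described here were taken by name from 48709 mouse genes in the count table: the granins Chgb, Chga, Scg2, Scg3, Scg5 and Vgf, and the processing enzymes Pcsk1, Pcsk2 and Cpe. All 9 were matched by gene identifier, and all 9 passed the filter on low counts. The set was selected on the measured difference of Chgb, whose CPM and deposited fold change were lower in knock-in cochlea, so differences between the genotypes are given as descriptions. RNA-seq had been carried out on whole cochlea, the hearing organ, of 3 knock-in mice (genotype label Hgfdel10Neo/del10Neo, KI) and 3 wild-type littermates (Hgf+/+, WT). Both Hgf alleles of the KI mice lacked 10 bp of intron 5 and were labelled as carrying Neo, a selection cassette. The mice were aged 5 to 27 weeks, and the sources used here do not give age or sex mouse by mouse. The allele was present in every tissue, so nothing in the design limits it to a cell type of the cochlea.

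Libraries held 24005234 to 42312291 gene counts. Hgf was at 9.23, 10.4 and 10.5 CPM (read counts scaled to a common library size with TMM factors) in the KI libraries, against 15.4, 16.2 and 15.2 CPM in the WT libraries. Reads of the Neo sequence numbered 71, 199 and 5 in KI replicates 1, 2 and 3, against 5, 8 and 10 in the WT libraries. The library labelled KI replicate 3 was thus at the WT level for Neo but with the other KI libraries for Hgf, and fold changes without it are given below. Xist, which coats the silenced X, reached 17489 counts in the library labelled KI replicate 3 and 25380 in WT replicate 2, and at most 30 elsewhere. Genes of hair cells, which mark the sensory epithelium, were detected in all libraries, with a summed level of 299 to 320 CPM in KI and 282 to 322 CPM in WT over 18 genes. Myo6 was the largest part of that sum, at 112 to 138 CPM. Pou4f3 was at 4.70 to 7.73 CPM and Atoh1 at most 0.370 CPM. The sum therefore does not measure how much sensory epithelium a library held.

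Chgb, Scg2 and Pcsk1 shared a sequence feature that played no part in their choice. The cAMP response element, TGACGTCA, is the site to which CREB family factors bind, and it reads the same on both strands. RefSeq promoter windows, from 250 bases before to 50 bases after the start on GRCm38.p6, were at hand for 7 of the 9 genes (all but Vgf and Cpe), and 3 of the 7 held the element. Over all 32544 windows of that length, 1.80% held it. The sites are shown because these are also the 3 genes that varied most between mice; the element is in capitals, each line has 30 bases, and each is written 5′ to 3′ on the strand of its gene.
Chgb, chr2:132781559-132781588, forward strand: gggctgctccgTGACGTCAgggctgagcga
Scg2, chr1:79440076-79440105, reverse strand: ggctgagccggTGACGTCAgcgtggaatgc
Pcsk1, chr13:75089768-75089797, forward strand: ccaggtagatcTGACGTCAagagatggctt

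The element began 72 bases upstream of the RefSeq start in Chgb, 68 in Scg2 and 78 in Pcsk1. The GENCODE M21 models of Chgb and Scg2 begin farther upstream, so that their sites lie inside those gene models, whereas the site of Pcsk1 lies before its model. All 7 windows held TGACG, the leading 5 letters of the element, on either strand, against 20.9% of all windows. The full element contains these letters on both strands, so the 3 genes above are among the 7. The 4 without the full element were Chga, Scg3, Scg5 and Pcsk2. These are matches of letters and were not tested as binding sites, and a link between the element and the variation between mice was not tested.

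Setting genes beside each other requires levels per length, given here as CPM per kilobase of merged exons. Cpe, the carboxypeptidase that trims basic residues after cleavage, was at 57.9 ± 8.71 CPM per kb (SD, n = 6 libraries of both groups), the highest level of the 9 and 6.78 times that of the next gene. Scg5 encodes 7B2, the chaperone of Pcsk2, and was at 8.54 ± 1.46 CPM per kb. Scg3, which links granins to the granule membrane, was at 7.13 ± 2.14 CPM per kb. The levels of Cpe were above those of Scg5 in 6 of 6 libraries, and those of Scg5 above those of Scg3 in 5 of 6. Both chromogranins followed, with Chgb at 5.74 ± 3.10 and Chga at 5.56 ± 1.34 CPM per kb. Chgb was above Chga in the 3 WT libraries and below it in the 3 KI libraries. Scg2, or secretogranin II, had a level of 4.18 ± 2.34 CPM per kb and was below Chga in 5 of 6 libraries.

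The convertases were the least abundant enzymes. Pcsk2 (PC2) was at 1.66 ± 0.353 CPM per kb and below Scg2 in 6 of 6 libraries. Pcsk1 (PC1/3) was at 0.594 ± 0.354 CPM per kb and below Pcsk2 in 6 of 6 libraries. Vgf, a neurotrophin-inducible granin-like precursor, came last at 0.287 ± 0.0450 CPM per kb and was below Pcsk1 in 5 of 6 libraries, with only 17 to 41 counts per library. With the longest annotated transcript as the length, Chga was at 8.13 and Chgb at 5.74 CPM per kb, so the 2 changed places, while the order of the others was the same.

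**Figure D1:**
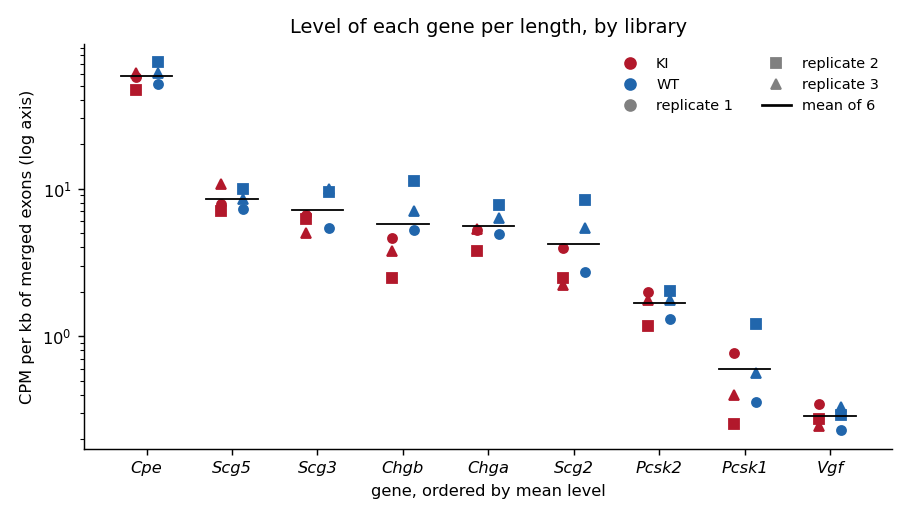
Level of each gene in CPM per kilobase of merged exons (log axis), 1 point per library, KI left of WT, with a line at the mean of the 6 libraries. Cpe stands apart at 57.9 CPM per kb, 5 granins lie between 4.18 and 8.54, and Pcsk2, Pcsk1 and Vgf lie below them.

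Granins differed from each other in how the genotypes compared. Chgb, or chromogranin B, is a sorting factor of the granule core. GENCODE M21 places the gene at chr2:132781278-132795079 (GRCm38, forward strand). Its level was 12.7, 6.78 and 10.3 CPM in KI replicates 1, 2 and 3, against 14.3, 30.8 and 19.4 CPM in WT replicates 1, 2 and 3. Every KI library lay below every WT library, with a narrow gap between KI replicate 1 and WT replicate 1. The means were 9.94 ± 2.98 CPM in KI and 21.5 ± 8.45 CPM in WT (SD, n = 3 each), a log2 fold change of -1.11 (SE 0.29), or 2.16-fold lower in KI. In bulk RNA, fewer cells of a type and less RNA per cell cannot be told apart. Among 20733 genes tested, 4.02% had every KI library below every WT library and 4.7% had every KI library above. Without the library labelled KI replicate 3 the log2 fold change of Chgb was -1.14, and without WT replicate 2, the highest, it was -0.76.

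These are the values that chose the set, and whether Chgb is called depends on the tool and the filter. In the authors' deposited table Chgb has a log2 fold change of -1.12 with an adjusted p of 0.0161, and 0.102% of the features with an adjusted p there are lower at that threshold. DESeq2 on the same counts listed it at an adjusted p of 0.0405 (0.0531% of genes called lower), and edgeR without a filter on low counts at 0.0147. The edgeR quasi-likelihood fit with its standard filter gave an adjusted p of 0.966. That fit called 0.0241% of genes lower and 0.00965% higher (0.0338% in either direction), and 0 of the 9 genes. At an unadjusted p under 0.05 it listed 2 of the 9, Chgb, which chose the set, and Scg2, where 1.96% of all genes tested were lower and 2.54% higher. DESeq2 called 1 of the 9, Chgb, and limma-voom 0.

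Scg2 encodes the precursor of the peptide secretoneurin. It was at 9.89, 6.27 and 5.59 CPM in the KI libraries, against 6.87, 20.9 and 13.6 CPM in the WT libraries. The groups overlapped, since WT replicate 1 lay within the KI range, while the other 2 WT libraries were above all KI libraries. The log2 fold change was -0.92 (SE 0.36). It was -0.78 without the library labelled KI replicate 3 and -0.50 without WT replicate 2.

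Chga, or chromogranin A, is the founding member of the family and a precursor of peptides such as catestatin. It was at 14.5, 10.5 and 14.6 CPM in KI and 13.6, 21.3 and 17.3 CPM in WT. The groups overlapped through WT replicate 1, and the log2 fold change was -0.40 (SE 0.19). Scg3 was at 18.2, 17.0 and 13.7 CPM in KI and 14.7, 26.1 and 27.4 CPM in WT, with a log2 fold change of -0.48 (SE 0.22). Here too WT replicate 1 fell among the KI libraries and the other 2 WT libraries lay above them. Without the library labelled KI replicate 3 the log2 fold changes were -0.48 for Chga and -0.38 for Scg3. That of Chga was -0.23 without WT replicate 2 and -0.26 without KI replicate 2.

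The remaining granins showed little difference between the genotypes. Scg5 was at 12.4, 11.1 and 16.8 CPM in KI, against 11.4, 15.6 and 13.2 CPM in WT, and both group means were 13.4 CPM. Its highest value was in the library labelled KI replicate 3. Vgf was at 1.03, 0.818 and 0.736 CPM in KI, against 0.683, 0.874 and 0.978 CPM in WT, with a log2 fold change of 0.02 (SE 0.27). At 17 to 41 counts a difference as small as those of Chga or Scg3 would lie within 2 SE of 0 and was not detectable for Vgf.

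Among the enzymes, Pcsk1 was the most variable. Pcsk1, the convertase of the early secretory granule, was at 4.31, 1.43 and 2.25 CPM in KI, against 2.01, 6.82 and 3.15 CPM in WT. Its groups overlapped widely, and the highest WT library was 3.40 times the lowest. The log2 fold change was -0.57 (SE 0.47) and turned to 0.04 without WT replicate 2. Pcsk2 was at 15.7, 9.24 and 13.9 CPM in KI, against 10.3, 16.0 and 13.9 CPM in WT, a log2 fold change of -0.05 (SE 0.21). The groups covered almost the same range. The antisense genes Pcsk2os1 and Pcsk2os2 share 260 and 99 exon bases with Pcsk2, and no source used here states whether counting used strand, so their reads may not be separable. Cpe was at 148, 121 and 158 CPM in KI, against 135, 187 and 158 CPM in WT. These ranges overlapped, and the log2 fold change of -0.17 (SE 0.15) was about as large as its error.

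**Figure D2:**
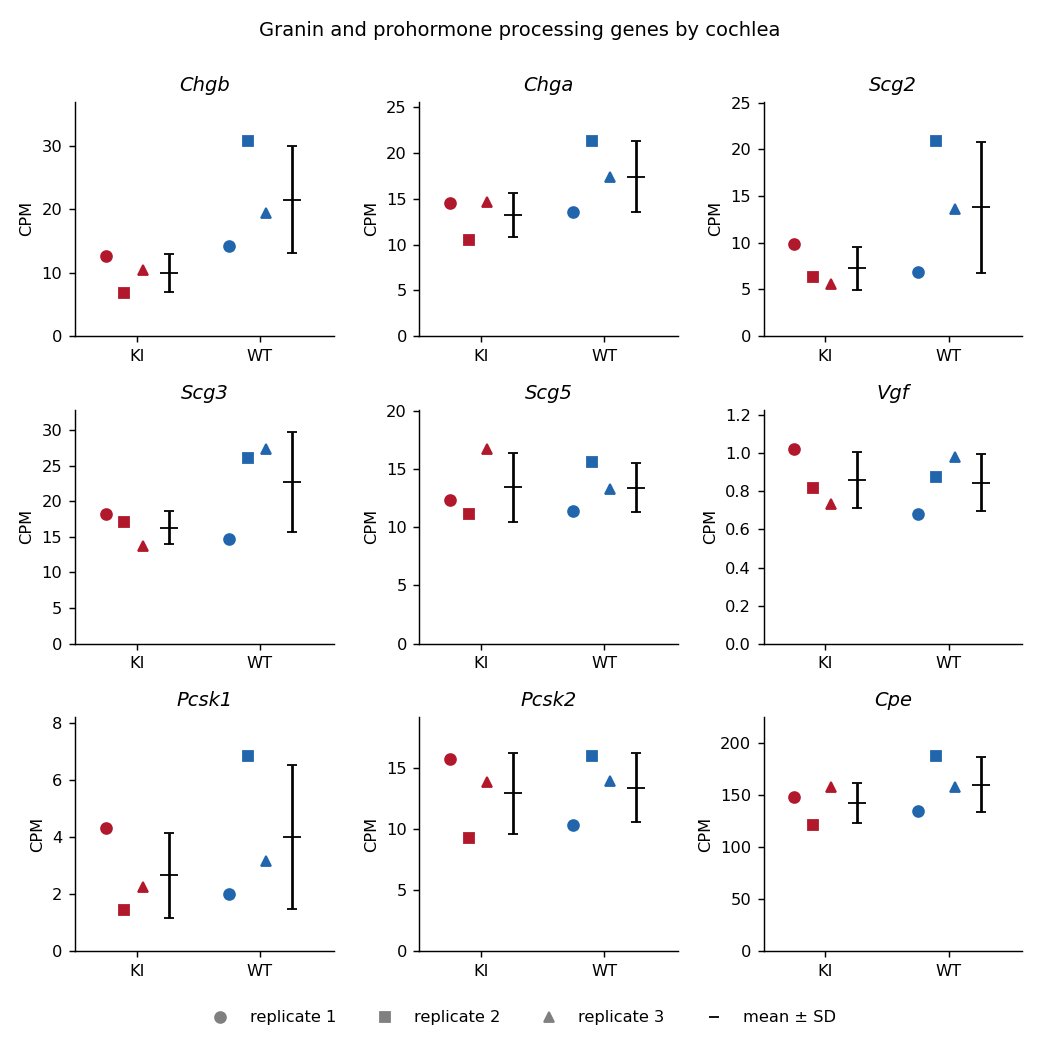
CPM of the 9 genes in each library, KI left of WT, with a marker shape per replicate and the group mean ± SD at the right of each group. Chgb is the gene whose KI points (6.78 to 12.7 CPM) all lie below its WT points (14.3 to 30.8 CPM); the other 8 overlap.

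Over the set, 8 of 9 log2 fold changes were negative, with a median of -0.40, beside 49.8% negative and a median of 0.00082 over all genes tested. The 8 include Scg5 at -0.0044 and Pcsk2 at -0.05, whose directions turned in 7 and 4 of 15 alternative fits. The median of the 9 was -0.04 without WT replicate 2, -0.26 without KI replicate 2 and 0.0076 with the neuron score as a covariate. Chgb took part in choosing the set, and the edgeR adjusted p of the other 8 genes ran from 0.966 to 0.999. In the authors' deposited table these 8 each have an adjusted p above 0.99.

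The same libraries held the extremes of most genes. WT replicate 2 had the highest value of 6 of the 9 genes (Chgb, Chga, Scg2, Pcsk1, Pcsk2 and Cpe), where 15.5% of all genes tested had theirs. KI replicate 2 had the lowest value of 6 of the 9 (Chgb, Chga, Scg5, Pcsk1, Pcsk2 and Cpe), where 15.4% of all genes tested had theirs. WT replicate 1 was the lowest WT library for all 9 genes. The biological coefficient of variation that edgeR estimates within groups was 0.399 for Pcsk1, 0.304 for Scg2 and 0.250 for Chgb. It was between 0.147 for Cpe and 0.197 for Scg3 in the other 6, and the median of all genes tested was 0.145.

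**Figure D3:**
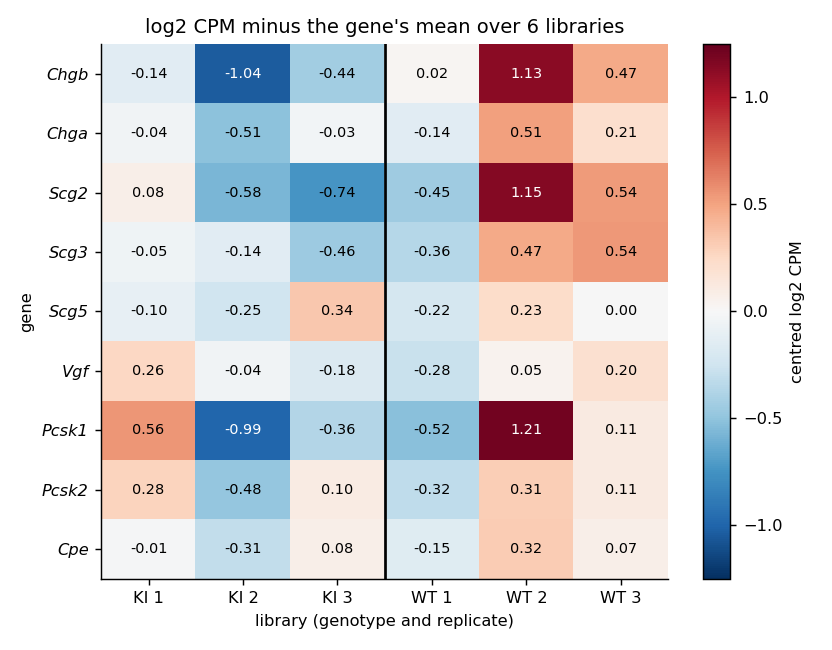
log2 CPM (prior count 2) minus the mean of the gene over the 6 libraries, for the 9 genes (rows) and the KI and WT libraries (columns, KI left of the line). WT replicate 2 is above the mean for all 9 genes, by 1.13 for Chgb, 1.15 for Scg2 and 1.21 for Pcsk1, and KI replicate 2 is below it for all 9.

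Ratios within a library set members against each other, and those with Chgb carry the values on which the set was selected. The ratio of Chgb to Chga CPM was 0.873, 0.648 and 0.707 in the KI libraries, against 1.05, 1.44 and 1.12 in the WT libraries. The KI ratios lay below the WT ratios, as the Chgb levels themselves do, with means of 0.743 ± 0.117 in KI and 1.20 ± 0.209 in WT (SD, n = 3 each). Chgb relative to Cpe was at 0.0560 to 0.0855 in KI and 0.106 to 0.164 in WT. The ratio of Chgb to Scg2 overlapped between the groups, at 1.28, 1.08 and 1.85 in KI and 2.08, 1.47 and 1.43 in WT.

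The genes with a pattern most like that of Chgb were found by the root mean square difference of centred log2 CPM over the 6 libraries, among 17244 genes with at least 1 CPM. This measure carries the Chgb values on which the set was selected. Likeness therefore partly restates a similar difference between the genotypes and is a description. Among the nearest were Bex4 (0.202), Mybph (0.269), Ngfr (0.282) and Klhl33 (0.291), where the median over all ranked genes was 0.703. Bex4 was at 2.77, 1.36 and 2.12 CPM in KI and 3.17, 4.57 and 4.20 CPM in WT, and its groups did not overlap. Ngfr, which encodes the low-affinity neurotrophin receptor, was at 22.7, 9.68 and 11.6 CPM in KI and 15.2, 31.2 and 22.5 CPM in WT. Its groups overlapped, and its extremes fell in the same libraries as those of Chgb. Of the set, Scg2 ranked 7, Pcsk1 48 and Chga 49 in likeness to Chgb, and Scg5 ranked 2619. Vgf, under 1 CPM on average, was not ranked.

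The other genes of the regulated secretory pathway were taken from lists of granule machinery, other convertases and carboxypeptidases, and peptide precursors. Of 24 tested granule machinery genes, edgeR called 0, with 1 lower and 1 higher at an unadjusted p under 0.05, and DESeq2 and limma-voom called 0. The median log2 fold change was -0.05. Syt4, a synaptotagmin of neuronal granules, had -0.58 (SE 0.23), and Sytl5, a Rab27 effector, had 0.85 (SE 0.24). Of 14 tested convertases and carboxypeptidases 0 were called by the 3 tools and 0 had an unadjusted p under 0.05 in edgeR, with a median of -0.03.

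Peptide precursors, the cargo itself, were mostly scarce, and 18 of 33 passed the filter. The 3 tools called 0 of the 18, with 1 lower at an unadjusted p under 0.05 in edgeR and a median of -0.23, which was -0.41 without KI replicate 2 and -0.38 without WT replicate 1. That gene was Adcyap1, the precursor of PACAP, at 1.60, 1.16 and 0.823 CPM in KI and 1.41, 2.52 and 3.08 CPM in WT (log2 fold change -0.96, SE 0.33). Calca, the precursor of calcitonin and CGRP, was looked at after its values were seen, at 13.9, 17.8 and 3.29 CPM in KI and 8.11, 16.8 and 35.3 CPM in WT. Its lowest value was in the library labelled KI replicate 3.

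Marker genes of the cells that could hold granins are given beside them, and their part in the values was not tested beyond the covariate fits. The shares of all genes at an unadjusted p under 0.05, given above, are the background for the counts below. The 30 spiral ganglion neuron genes, all tested, summed to 2120, 1765 and 2129 CPM in the KI libraries, against 1918, 2471 and 2395 CPM in the WT libraries. The groups overlapped, with the lowest sum in KI replicate 2 and the highest in WT replicate 2, as for Chgb. The fold change was below 0 on the log2 scale for 26 of the 30 (median -0.19, and -0.31 to -0.12 with 1 library left out, lowest without WT replicate 1 and nearest 0 without KI replicate 2). edgeR, DESeq2 and limma-voom called 0 of them, and 1 was lower at an unadjusted p under 0.05 in edgeR.

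Divided by that neuron sum, Chgb was at 0.599%, 0.384% and 0.486% in KI, against 0.743%, 1.25% and 0.812% in WT. This share carries the Chgb values on which the set was selected and is a description. Chga relative to neuron genes was 0.685%, 0.593% and 0.688% in KI, against 0.708%, 0.864% and 0.724% in WT, which lay apart by a narrow gap. The share of all genes that lie apart on this ratio was not computed, so the gap has no background beside it. In CPM the Chga groups overlapped. With the geometric mean of the neuron genes in place of their sum, the Chga groups overlapped. Scg2 relative to neuron genes was 0.466%, 0.355% and 0.262% in KI, against 0.358%, 0.846% and 0.569% in WT, and these groups overlapped. For Pcsk2 the share was 0.638% ± 0.109 in KI and 0.588% ± 0.0545 in WT (SD, n = 3 each), and for Cpe it was 7.09% ± 0.294 in KI and 7.06% ± 0.497 in WT. The neuron score is the mean log2 CPM of the same neuron genes, not their sum. With that score as a covariate in edgeR, the log2 fold change was -0.69 for Chgb, -0.34 for Scg2, -0.20 for Scg3 and -0.15 for Chga. Scg5, Vgf, Pcsk1, Pcsk2 and Cpe were above 0, at 0.15, 0.20, 0.13, 0.24 and 0.0076.

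Pituitary hormone RNA was present in every library and differed widely between them. Growth hormone, Gh, was at 29.8, 12.4 and 78.5 CPM in KI, against 128, 202 and 60.0 CPM in WT. Prolactin, Prl, was at 4.22, 2.69 and 209 CPM in KI, against 15.9, 400 and 10.5 CPM in WT, highest in the 2 libraries with abundant Xist. Prl and the other hormones except Gh and Cga were chosen after their values were seen. Endocrine cells of the pituitary are rich in granins. The summed level of the 12 pituitary and gut hormone genes was 37.2, 17.8 and 292 CPM in KI, against 148, 607 and 73.7 CPM in WT. WT replicate 2 had the highest sum and the highest Chgb, and KI replicate 2 the lowest of both. The library labelled KI replicate 3 had the second highest sum, most of it Prl, with 10.3 CPM of Chgb. WT replicate 3 had a sum of 73.7 CPM with 19.4 CPM of Chgb. By Gh alone these 2 libraries were closer, at 78.5 and 60.0 CPM. Whether pituitary RNA had a part in the Chgb values was not tested beyond the covariate fit below.

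Of those 12 genes 6 were tested, with a median of -0.61 that was -0.13 without WT replicate 2, -1.12 without the library labelled KI replicate 3 and -1.54 without WT replicate 3. edgeR, DESeq2 and limma-voom called 0. At an unadjusted p under 0.05 edgeR listed 1 lower, Gh (log2 fold change -1.70, SE 0.60). Ins1, the insulin gene of the pancreas, had no count in any library, and Fshb was at most 0.522 CPM. The log2 of the summed hormone level was used as a covariate, chosen after seeing the data. Prl made up 400 of 607 CPM of the sum in WT replicate 2. In the library labelled KI replicate 3 it made up 209 of 292 CPM. With this covariate the edgeR log2 fold change was -0.81 for Chgb, -0.77 for Scg2, -0.56 for Scg3, -0.22 for Chga, -0.13 for Pcsk1 and -0.016 for Cpe.

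**Figure D4:**
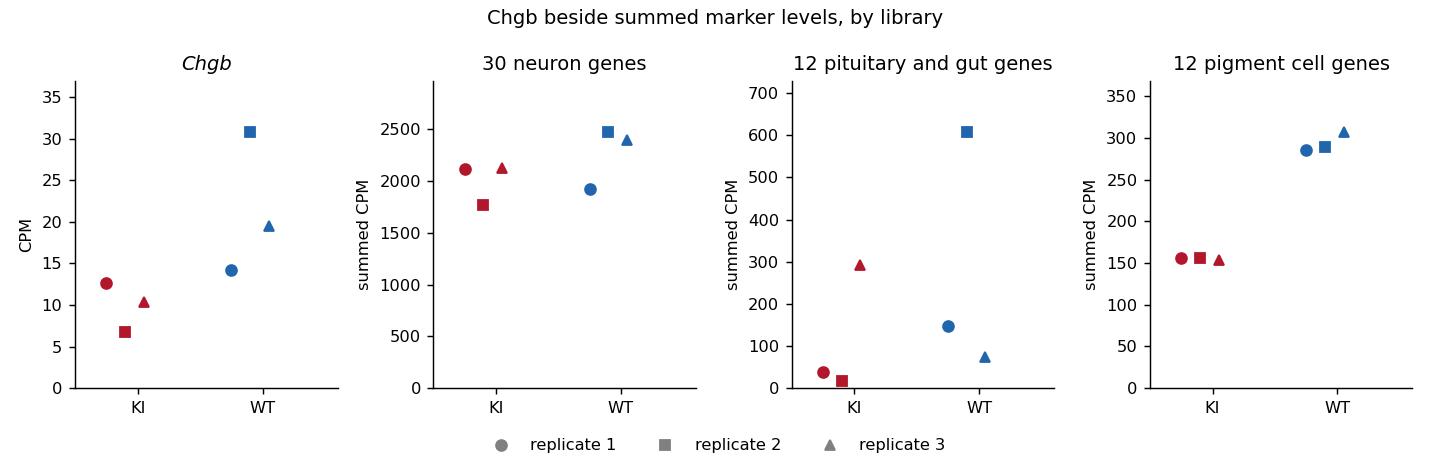
Chgb in CPM and the summed CPM of the neuron, pituitary and gut hormone, and pigment cell genes, 1 point per library, KI left of WT. The hormone sum is highest in WT replicate 2 (607 CPM) and in the library labelled KI replicate 3 (292 CPM), while the pigment cell sum separates the groups without overlap, at 153 to 157 CPM in KI and 286 to 307 CPM in WT.

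Autonomic neurons and chromaffin cells, further classic sites of granins, had low levels of their defining genes. Their 12 genes summed to 35.0 to 43.2 CPM in KI and 33.7 to 42.0 CPM in WT, most of it from Gata2 and Slc18a2. Dbh, the noradrenaline enzyme, was at most 0.0433 CPM in KI and 0.0672 CPM in WT, and Hand2 had no count in 5 of 6 libraries. Of the 8 tested, edgeR, DESeq2 and limma-voom called 0, with 1 lower at an unadjusted p under 0.05 and a median of -0.24. That median turned to 0.25 without WT replicate 2, to 0.23 with the neuron covariate and to 0.05 with a stricter filter. Chrna3, a nicotinic receptor gene of autonomic ganglia, was looked at after its values were seen, at 1.27, 0.205 and 0.130 CPM in KI and 0.321, 3.03 and 0.453 CPM in WT.

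Central neuron genes summed to 79.1 to 86.8 CPM in KI and 74.7 to 98.2 CPM in WT over 10 genes, with Neurod6 at 0 in every library. Of the 4 tested the 3 tools called 0, with 0 at an unadjusted p under 0.05 and a median of -0.01. Schwann cell genes summed to 1399 to 1791 CPM in KI and 1484 to 1888 CPM in WT. Of 15 Schwann cell genes 0 were called by the 3 tools, with 3 lower at an unadjusted p under 0.05 and a median of -0.13 (-0.30 without the library labelled KI replicate 3, -0.25 without KI replicate 1 or WT replicate 1). Osteoblast genes had a median of 0.04 over 12, with 0 called by the 3 tools and 0 at an unadjusted p under 0.05.

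Pigment cell genes held the calls among these lists. Of 11 tested, edgeR called 4 lower (Dct, Tyr, Slc45a2 and Mlana, genes of melanin synthesis and melanosomes), DESeq2 called 6, and the median was -1.13. Without the library labelled KI replicate 3, or without WT replicate 3, edgeR called 2. Unlike Chgb, Dct had little spread within a group, at 19.3, 24.3 and 23.6 CPM in KI and 98.5, 105 and 116 CPM in WT (log2 fold change -2.25, SE 0.12, edgeR adjusted p = 0.000179).

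Immediate early genes are induced within minutes of cell stimulation. Their summed level over 14 genes was 216 to 230 CPM in KI, against 636, 242 and 268 CPM in WT replicates 1, 2 and 3. The KI sums lay below the WT sums, and WT replicate 1 was far above the other libraries. Of the 14 genes 0 were called by edgeR, DESeq2 or limma-voom, with 6 lower at an unadjusted p under 0.05 and a median of -0.59. Without WT replicate 1 that median was -0.16. Hair cell genes had a median of 0.01 over 17 tested, with 0 called by the 3 tools and 2 higher at an unadjusted p under 0.05.

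**Figure D5:**
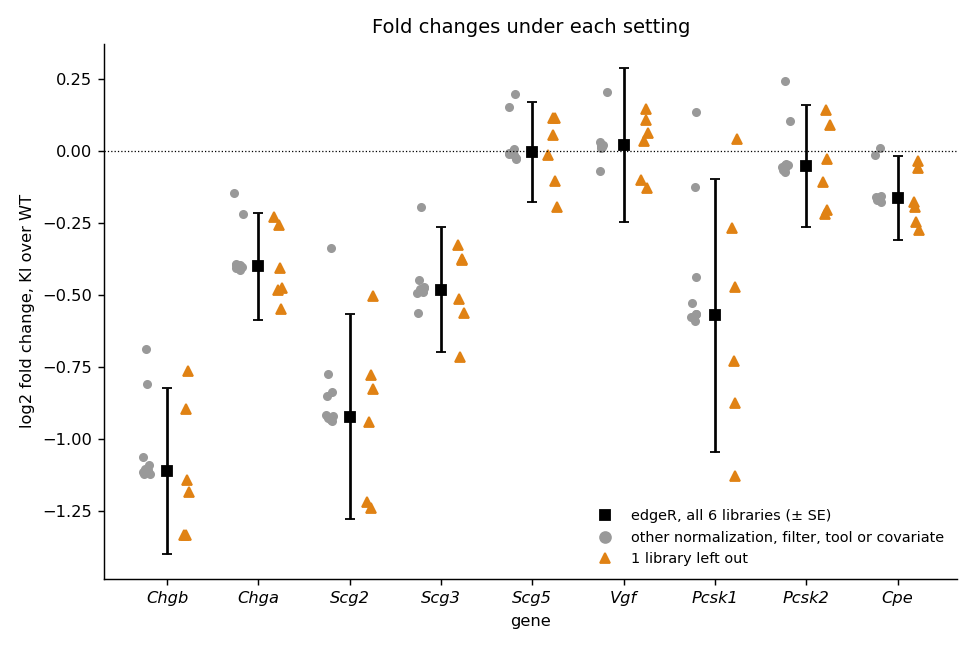
log2 fold change, KI over WT, of the 9 genes in the edgeR fit of all 6 libraries (squares, ± SE), with other normalizations, filters, tools or covariates (circles) and with 1 library left out (triangles). Chgb stays between -1.33 and -0.69 and Scg2 between -1.24 and -0.34, while Scg5, Vgf, Pcsk1, Pcsk2 and Cpe cross 0 in at least 1 setting.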

How the data were processed

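Per the labels' protocols, ribosomal RNA was removed from cochlear RNA and libraries were sequenced paired-end (93 bases). Reads were aligned with STAR 2.5.2 to GRCm38, per the submitters' processing notes, while no source used here names the counting program or its use of strand. The authors deposited raw read counts per gene. Their deposited DESeq2 table holds a mean signal per feature (counts over size factors), log2 fold changes with errors, a test score and p-values. Their regularized-log table was not used here.

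Of 48733 rows, 24 were spike-in and transgene sequences (0.0015% to 0.0045% of counts), which were removed before scaling and testing. Symbols and exons came from GENCODE M21 (48349 identifiers matched), promoters from RefSeq. Counts were tested with edgeR 4.0.16 (R 4.3.3; filterByExpr, TMM, quasi-likelihood F test, group only, two-sided, Benjamini-Hochberg over 20733 genes, threshold 0.05) after a check on simulated data. The SE is the absolute log2 fold change over the square root of F. DESeq2 1.42.0, limma-voom 3.58.1, RLE and upper-quartile scaling, no filter, a stricter filter (1 CPM in 3 libraries), covariates and leaving out each library were alternatives. No pair of libraries was a repeat (chi-square per degree of freedom at least 21.0 over 15 pairs).

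The members and lists were chosen with earlier results of these data known. Named genes were the members, Hgf, up to 2 genes per list with the smallest p, called list genes, and the 5 genes most like Chgb; some of these genes are not reported here. Replicate numbers follow accession order. The precision of CPM is set by counts and by 3 mice per group. Protein sequences were not used here.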

Additional observations from a re-analysis of the deposited data

Results flagged for a closer look

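Reads of the Neo sequence, which lay outside the comparisons, numbered 71 in KI replicate 1 and 199 in KI replicate 2, above every WT library (at most 10 counts). KI replicate 3 had 5. Groups of 3 libraries were too small for a search for single outlying libraries.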

How the results depend on the processing

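Chgb was lower in KI in all 15 alternative fits, with log2 fold changes of -1.33 to -0.69, and -1.33 to -0.76 when 1 library was left out. These fits reuse the values on which the set was selected and are a description. Every KI library lay below every WT library for Chgb, so leaving out 1 library could hardly turn the direction. The adjusted p of Chgb was under 0.05 in 2 of 16 fits, DESeq2 and edgeR with no filter. The other 8 genes were called in 0 fits (adjusted p from 0.213 upward). In edgeR with no filter 30 genes were called lower and 46 higher, in DESeq2 16 and 12, with the neuron covariate 2 and 0, and 4 were higher with the Xist covariate and 6 with the pituitary covariate. Leaving out 1 library gave 2 to 8 lower and 0 to 13 higher. The causes were not tested.

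Directions turned for members near 0. Scg5 had 0.0060 with upper-quartile scaling, 0.000031 with the stricter filter, 0.15 with the neuron covariate, 0.20 with the pituitary covariate, 0.05 to 0.11 without KI replicate 1, KI replicate 2 or WT replicate 2. Vgf had -0.072 with the pituitary covariate, -0.13 without KI replicate 1 and -0.10 without WT replicate 1. With the neuron covariate Pcsk1 had 0.13, Pcsk2 0.24 and Cpe 0.0076. Pcsk2 had 0.10 with the pituitary covariate, 0.14 without KI replicate 2 and 0.09 without WT replicate 2, and Pcsk1 had 0.041 without WT replicate 2. Leaving out 1 library gave -0.19 to 0.11 for Scg5, -0.13 to 0.14 for Vgf, -1.13 to 0.041 for Pcsk1 and -0.22 to 0.14 for Pcsk2. The median over the 9 genes was 0.0076 with the neuron covariate and -0.04 without WT replicate 2. Of 195 list medians 18 moved by more than the spread between replicates. No paired analysis was possible because the labels give no replicate numbers shared between the groups.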
